A study of Mus musculus with 15 samples.

Results

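The comparison described here was between mutant hematopoietic stem and progenitor cells from recipients that had received vehicle only and the same sorted compartment from wild-type mice. All 17143 genes on the autosomes and the mitochondrial chromosome that passed a low-count filter were its members, out of 17834 genes tested, and the 608 genes on X and Y and 83 identifiers without a match in the annotation were left out. The 3 vehicle libraries (A1, A3 and A4) came from CD45.2+ LSK cells (lineage-negative, Sca-1-positive, Kit-positive bone marrow cells) of the C57BL/6 strain that carried JAK2-V617F and IDH2-R140Q. In this model an Mx1-Cre transgene, active in blood cells and other interferon-responsive tissues, was induced to recombine conditional alleles of both genes. The marrow was then mixed with CD45.1 wild-type marrow and transplanted into lethally irradiated CD45.1 recipients. Vehicle was given by gavage for 21 to 28 days, with the last dose about 1.5 hours before sacrifice. The 3 WT libraries (B28, B30 and B31) were labelled CD45.2+ LSK, C57BL/6 and wild type, and no source used here said whether these mice had been transplanted or gavaged. RNA was amplified with the SMARTer method and sequenced, and the 15 libraries of the series (5 groups) were fitted together.

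LSK cells hold the long-lived hematopoietic stem cells and the multipotent progenitors that feed the myeloid, megakaryocytic, erythroid and lymphoid lineages. JAK2-V617F is a constitutively active form of the kinase that transmits signals from the erythropoietin, thrombopoietin and granulocyte colony-stimulating factor receptors to STAT transcription factors. IDH2-R140Q makes the mitochondrial enzyme produce 2-hydroxyglutarate, which competes with 2-oxoglutarate at dioxygenases that demethylate DNA and histones.

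In these libraries 5690 genes (33.2% of the 17143) were called different at an adjusted p below 0.05 by edgeR's quasi-likelihood test, 2633 higher in vehicle (15.4%) and 3057 lower (17.8%). The vehicle and WT libraries did not overlap for 9754 genes (56.9%). The 10 top genes of each direction, and members named by rule for a list's main direction, were chosen among these. Their lack of overlap, where stated below, was therefore fixed by the choice. Total counts were 24310100 to 32174287 per library, so 3 counts of a gene, taken as the detection limit, stood at 0.0957 to 0.118 CPM (counts scaled to a common library size by the trimmed mean of M values). The calls depended strongly on expression level. When genes were split by mean CPM into 10 classes of equal size, in the lowest class 2.22% were called higher and 23.2% lower, and in the highest class 49.5% were called higher and 2.27% lower. The WT libraries also held counts on more genes, 28125 to 32321 against 20437 to 22002 in the vehicle libraries, although their totals were not larger. WT B30 had the most genes and its removal reduced the calls to 1815, with 4.62% of genes higher and 5.84% lower. The share of counts in genes below the median level was 2.79% to 3.55% in WT and 1.69% to 2.11% in vehicle, and its part in the calls was not tested. The list counts below are therefore given with the same-level share, the percentage called among all genes in the level classes that the list's members occupy. Calls that held in each of the 6 fits that left out 1 library covered 4.47% of genes (higher) and 5.54% (lower).

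**Figure D1:**
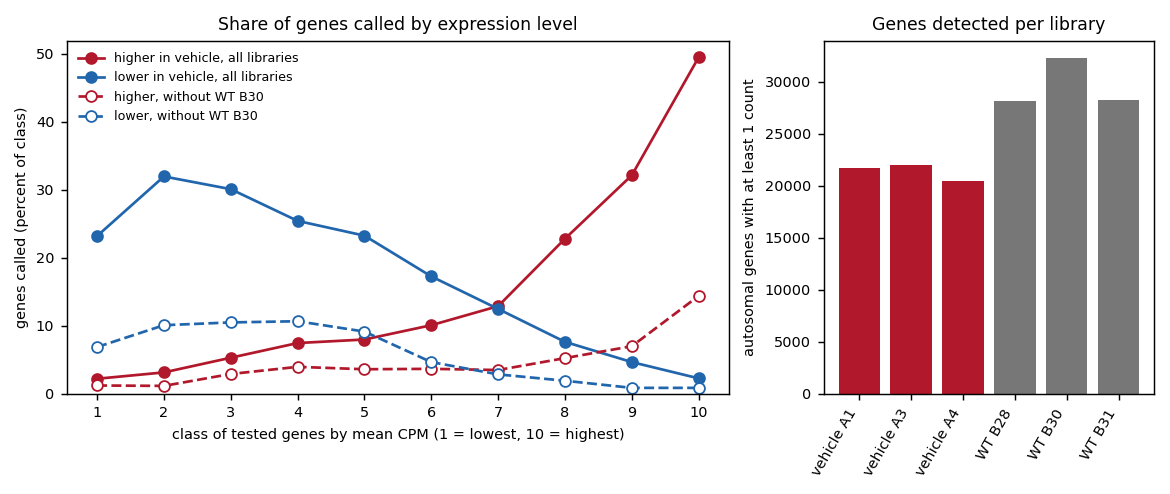
The left panel plots the percentage of genes called higher (red) or lower (blue) in vehicle in each of 10 classes of expression level, with all libraries (filled points) and without WT B30 (open points). The share called higher runs from 2.22% in the lowest class to 49.5% in the highest, while the right panel shows 20437 to 22002 autosomal genes with a count in the vehicle libraries and 28125 to 32321 in the WT libraries.

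Scaling moved the balance between directions. The calls split into 46.3% higher with the trimmed mean of M values, 26.7% higher with upper quartile normalization and 60.0% higher with a correction for GC content. The median log2 fold change over all genes was -0.09 in the first, -0.18 in the second and 0.09 in the third. List medians are read relative to these values, but they were not matched to expression level. With the main scaling the median over all genes was -0.97 in the lowest of the 10 level classes and 0.45 in the highest. Several factors could not be told apart from the genotype. The summed level of the Y-linked genes Ddx3y, Uty, Kdm5d and Eif2s3y was 437 to 494 CPM in the vehicle libraries and 0 to 0.134 CPM in the WT libraries, so the sexes differed. The letters in the library names differed as well, and transplantation and gavage were not stated for WT. The labels did not say whether libraries of a group came from separate mice, so p-values measured the spread between these libraries.

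The sort markers were present in every library. Kit, the stem cell factor receptor, was at 1130.1, 1369.7 and 859 CPM in the vehicle libraries against 1552, 1279 and 1251 CPM in the WT libraries and was not called (adjusted p = 0.217). Ptprc, which encodes CD45, was at 625, 528 and 494 CPM in the vehicle libraries against 477, 414 and 392 CPM in the WT libraries and was not called either (adjusted p = 0.113). Ly6a, which encodes Sca-1, was at 166, 71.9 and 13.1 CPM in the vehicle libraries against 59.9, 72.5 and 81 CPM in the WT libraries. Its level therefore differed more among the vehicle libraries than between the groups (adjusted p = 0.758), and vehicle A4 had the lowest value of all. The same library had the highest Klf1, the erythroid Kruppel-like factor, at 16, 29.1 and 129 CPM in the vehicle libraries against 28.1, 35.9 and 38.7 CPM in the WT libraries. Each cell type result below was recomputed without vehicle A4. Of the mutated genes, Jak2 was lower in vehicle (log2 fold change -0.57 ± 0.16 (SE), adjusted p = 0.0201), a call lost without any one of A1, A3, B28 or B30, and Idh2 was not called (adjusted p = 0.811).

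Immediate early transcription factors, which cells transcribe within minutes of a growth factor, cytokine or stress signal without making new protein first, were among the genes with the smallest adjusted p. All 23 genes of the list were tested, 14 were higher in vehicle and 0 lower, against a same-level share of 23.1% higher, and the list's median log2 fold change was 2.51. Of the 14, 11 were called in all 6 leave-one-out fits and 14 under all 3 other scalings. Atf3, a stress-induced repressor, was at 57.6, 46.6 and 48.6 CPM in the vehicle libraries against 0.363, 0.404 and 0.235 CPM in the WT libraries (log2 fold change 7.23 ± 0.42 (SE), adjusted p = 3.27e-07). The WT libraries lay far below all vehicle libraries. Fosb, a partner of Jun proteins in AP-1, was at 143, 225 and 92.2 CPM in the vehicle libraries against 6.17, 4.25 and 3.49 CPM in the WT libraries (log2 fold change 5.05 ± 0.46 (SE), adjusted p = 2.53e-05). Nr4a1, an orphan nuclear receptor named here after its values were seen, was at 418, 709 and 85.2 CPM in the vehicle libraries against 17.5, 6.34 and 7.18 CPM in the WT libraries. Vehicle A3 held the highest value of both, and the groups did not overlap. The program was uneven. Jun was at 285, 891 and 623 CPM in the vehicle libraries against 236, 242 and 117 CPM in the WT libraries and was not called (adjusted p = 0.122), and Ier2 lost its call when any one of 5 libraries was left out. Both were chosen after their values were seen.

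Inhibitors that such signals induce held calls in both directions. Of 24 MAPK and cytokine feedback genes, 7 were higher and 3 lower (same-level shares 19.5% and 15.3%). The higher calls numbered 5 to 6 when 1 library was left out, while the lower calls became 0 without B30, A1 or A4 and 1 without A3. Btg2, an antiproliferative cofactor of mRNA deadenylation, was at 715, 1197 and 570.4 CPM in the vehicle libraries against 61.4, 79.4 and 62 CPM in the WT libraries (log2 fold change 3.61 ± 0.31 (SE), adjusted p = 1.70e-05). Zfp36, which destabilizes cytokine mRNAs by binding AU-rich elements, was at 2364, 2808 and 1185 CPM in the vehicle libraries against 229, 194 and 160.5 CPM in the WT libraries (log2 fold change 3.44 ± 0.33 (SE), adjusted p = 4.42e-05). For both genes the lowest vehicle library was several times the highest WT library. Rgs1 and Rgs2, which shut off G proteins downstream of chemokine receptors, were higher by 2.86 and 1.36 on the log2 scale. Socs1, an inhibitor of JAK kinases, went the other way, at 0.489, 1.08 and 0.987 CPM in the vehicle libraries against 2.76, 7.28 and 2.18 CPM in the WT libraries (log2 fold change -2.25 ± 0.73 (SE), adjusted p = 0.0331), and its call was lost without A1, A3, A4 or B30.

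NF-kB subunits and their feedback genes showed 8 higher and 0 lower among 20 tested (same-level share 26.3% higher). Ier3, an early response gene that modulates survival signaling, was at 278, 322 and 242 CPM in the vehicle libraries against 40.9, 44.3 and 48.9 CPM in the WT libraries (log2 fold change 2.65 ± 0.16 (SE), adjusted p = 5.57e-07). Tnfaip3, the ubiquitin-editing enzyme A20, was at 132, 163 and 223 CPM in the vehicle libraries against 30.3, 33.7 and 22.2 CPM in the WT libraries (log2 fold change 2.59 ± 0.37 (SE), adjusted p = 0.000843). Nfkbia, which holds NF-kB in the cytoplasm, was at 402, 422 and 472 CPM in the vehicle libraries against 76.1, 103 and 103 CPM in the WT libraries (log2 fold change 2.2 ± 0.38 (SE), adjusted p = 0.00285). These 3 genes encode inhibitors or modulators of the pathway, and none of their values overlapped between groups. The kinase Ikbkb differed by less, 0.62 ± 0.11 on the log2 scale.

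Inflammatory cytokines and chemokines, which are secreted signals, were called in 1 direction. Of 21 tested members 11 were higher and 0 lower, against same-level shares of 13.7% and 18.7%, and 9 held in every leave-one-out fit. Cxcl2, a neutrophil chemoattractant, was at 92.1, 59.1 and 43 CPM in the vehicle libraries against 0.109, 0.303 and 0.0335 CPM in the WT libraries, and the WT libraries were close to or under the detection limit. Tnf was at 46.1, 34 and 28.4 CPM in the vehicle libraries against 2.87, 2.33 and 3.45 CPM in the WT libraries (log2 fold change 3.65 ± 0.37 (SE), adjusted p = 6.30e-05). Il1b, the precursor of interleukin-1 beta, was at 6.58, 4.72 and 4.22 CPM in the vehicle libraries against 0.363, 0.337 and 0.436 CPM in the WT libraries (log2 fold change 3.75 ± 0.53 (SE), adjusted p = 0.000808). The vehicle libraries exceeded the WT libraries without overlap for each of these cytokines. Ptgs2, the inducible cyclooxygenase that starts prostaglandin synthesis, was at 50.7, 32.6 and 23.1 CPM in the vehicle libraries against 0.653, 0.539 and 0.972 CPM in the WT libraries (log2 fold change 5.61 ± 0.41 (SE), adjusted p = 3.53e-06). Alox5, which starts leukotriene synthesis, was higher by 2.85, while the arachidonate list as a whole was mixed with 6 higher and 4 lower of 21 (same-level shares 17.5% and 17.4%). Without B30 it had 3 higher and 1 lower, without A1 3 and 2, without A4 6 and 1, and without A3 or B28 2 lower. Hpgd, which inactivates prostaglandins, was among the lower ones (log2 fold change -2.82 ± 0.74 (SE), adjusted p = 0.0143), though not without A4, and stood at 0.564, 0.415 and 0.197 CPM in vehicle.

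Receptors and adhesion molecules were called higher in shares near those of genes of their level, and single members differed strongly. Among 36 chemokine and cytokine receptors 9 were higher and 4 lower (same-level shares 23.4% and 11.1%), with 1 lower without B30 and 2 without A4. Ccr1, a receptor for CCL3 and CCL5, was at 46.5, 55.5 and 64.4 CPM in the vehicle libraries against 1.52, 2.83 and 1.78 CPM in the WT libraries (log2 fold change 4.76 ± 0.36 (SE), adjusted p = 4.16e-06). Ccr2, the CCL2 receptor of monocytes and their progenitors, was at 416, 246 and 541 CPM in the vehicle libraries against 37.2, 30.4 and 32.1 CPM in the WT libraries (log2 fold change 3.59 ± 0.40 (SE), adjusted p = 0.000143). Ccr7, which guides lymphocytes and dendritic cells, was lower (log2 fold change -2.26 ± 0.52 (SE), adjusted p = 0.0091). Csf2rb, the beta chain shared by the IL-3, IL-5 and GM-CSF receptors, was higher by 1.76. Of 30 adhesion genes 10 were higher and 3 lower (same-level shares 30.1% and 7.67%), and 6 were higher without B30. Cd69, an activation antigen that antagonizes the egress receptor S1PR1, was at 561, 452 and 403 CPM in the vehicle libraries against 30.4, 27.2 and 29.4 CPM in the WT libraries (log2 fold change 4.03 ± 0.28 (SE), adjusted p = 2.35e-06). Selp, which encodes P-selectin, was at 217, 127 and 136 CPM in the vehicle libraries against 37, 32.7 and 41.4 CPM in the WT libraries (log2 fold change 2.11 ± 0.23 (SE), adjusted p = 0.000102). The groups were separate for both, and Itgav, the integrin alpha V chain, was lower (log2 fold change -1.2 ± 0.25 (SE), adjusted p = 0.00609).

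**Figure D2:**
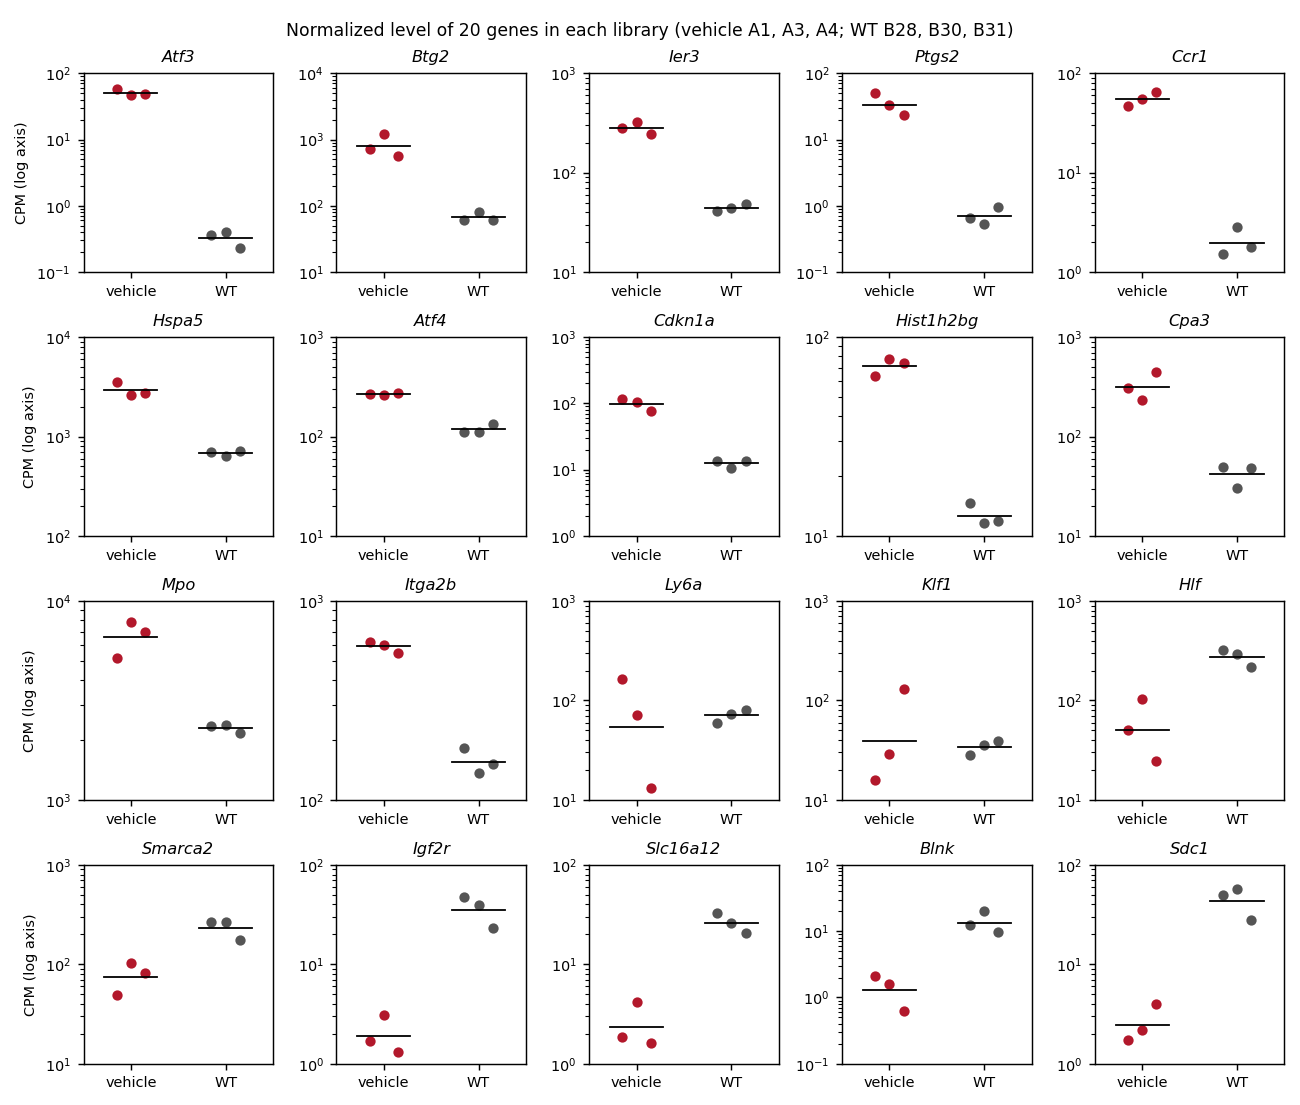
Each panel plots the CPM of 1 gene in the 3 vehicle (red) and 3 WT (grey) libraries on a log axis, and the bar is the geometric mean. Atf3, Btg2, Ier3, Ptgs2, Ccr1, Hspa5 and Cpa3 are separate with vehicle above WT, Hlf, Smarca2, Igf2r, Slc16a12, Blnk and Sdc1 are separate with vehicle below WT, and Ly6a runs from 13.1 to 166 CPM within vehicle.

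Genes of protein folding in the endoplasmic reticulum (ER) formed a further group. The unfolded protein response senses misfolded proteins in the ER lumen and induces chaperones through ATF6, XBP1 and ATF4. Of 30 tested members 15 were higher and 2 lower (same-level shares 38.4% and 4.83%), with a median of 0.69, and 9 of the higher and 1 of the lower calls held in every leave-one-out fit. The median over all genes was 0.45 in the highest level class, which held the median member of this list. WT B30 was the library whose removal cost the most, with 9 higher and 1 lower. Hspa5, the ER lumenal HSP70 chaperone BiP, was at 3523, 2603 and 2754 CPM in the vehicle libraries against 707, 630.1 and 721 CPM in the WT libraries (log2 fold change 2.11 ± 0.16 (SE), adjusted p = 3.87e-06). Hyou1, its nucleotide exchange factor, was at 281, 223 and 341 CPM in the vehicle libraries against 77.9, 65.1 and 87.4 CPM in the WT libraries (log2 fold change 1.87 ± 0.22 (SE), adjusted p = 0.000202). Calr, the lectin chaperone calreticulin, was at 2615, 1989.5 and 3129 CPM in the vehicle libraries against 1029.8, 819 and 1064 CPM in the WT libraries (log2 fold change 1.41 ± 0.19 (SE), adjusted p = 0.000555). Each of these 3 chaperones was separate between groups. Derl3, a component of ER-associated degradation that is abundant in secretory cells, was lower, at 2.22, 2.33 and 1.46 CPM in the vehicle libraries against 7.29, 13.3 and 4.49 CPM in the WT libraries (log2 fold change -2.06 ± 0.40 (SE), adjusted p = 0.00455). Its movement was opposite to that of the chaperones and the same as that of the plasma cell list below.

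The ER stress element, CCAAT then 9 bases of any kind then CCACG, was searched on both strands from 250 bases before to 50 bases after each start site (RefSeq, GRCm38.p6). It was present in 9 of the 25 list genes with a promoter sequence and in 18 of 11360 tested genes (0.159%) overall. The 9 did not move as 1 block. Hspa5, Calr, Hsp90b1, Canx and Pdia6 were higher, Derl3 was lower, and Dnajc3 (log2 fold change -0.63 ± 0.43 (SE), adjusted p = 0.262), Creld2 and Syvn1 were not called. Hsp90b1 differed by 0.73 ± 0.22, Canx by 0.76 ± 0.14 and Pdia6 by 0.71 ± 0.20 on the log2 scale, and the calls of Hsp90b1 and Pdia6 were lost in 3 of the 6 leave-one-out fits. The whole Hspa5 promoter is given first because Hspa5 had the smallest adjusted p of the list, and 59-base windows follow for 3 further chaperones that were higher, for the member that was lower and for 1 that was not called. Capitals mark the element, which reads in reverse complement in Calr and Derl3. A match describes letters and not binding.

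Hspa5 (chr2:34771840-34772139, plus strand): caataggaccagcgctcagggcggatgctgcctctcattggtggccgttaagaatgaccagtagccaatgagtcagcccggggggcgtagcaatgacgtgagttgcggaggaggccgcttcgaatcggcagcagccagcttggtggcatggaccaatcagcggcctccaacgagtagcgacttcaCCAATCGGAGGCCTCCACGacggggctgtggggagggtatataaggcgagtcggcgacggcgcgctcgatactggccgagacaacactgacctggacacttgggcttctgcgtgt
Calr (chr8:84847055-84847113, minus strand): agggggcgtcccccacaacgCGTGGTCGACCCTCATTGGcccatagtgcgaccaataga
Canx (chr11:50325780-50325838, minus strand): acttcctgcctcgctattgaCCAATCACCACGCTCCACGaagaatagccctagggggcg
Pdia6 (chr12:17266471-17266529, plus strand): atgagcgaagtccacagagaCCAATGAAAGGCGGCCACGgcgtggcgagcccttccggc
Derl3 (chr10:75893222-75893280, plus strand): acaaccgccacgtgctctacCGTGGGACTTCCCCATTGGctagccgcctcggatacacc
Dnajc3 (chr14:118937807-118937865, plus strand): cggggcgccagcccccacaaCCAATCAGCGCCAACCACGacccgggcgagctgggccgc

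The immediate early and feedback genes were searched the same way for the cAMP response element TGACGTCA, which CREB and ATF proteins bind. It was in 1 of 18 immediate early promoters, 3 of 19 feedback promoters and 3.37% of all tested genes. The CArG box, the site of serum response factor, was in 2 of 18 and 2 of 19, against 1.57% of all. Among the immediate early carriers, Maff (cAMP response element) and Srf (CArG box) were not called, and Egr2 (CArG box) was higher. The AP-1 site TGANTCA was in 4 of 15 cytokine, 0 of 18 immediate early and 1 of 19 feedback promoters and in 6.63% of all. The E-box CACGTG was in 4 of 18 immediate early, 2 of 19 feedback and 0 of 15 cytokine promoters and 11% of all. TTCNNNGAA was in 2 of 15 cytokine, 1 of 18 immediate early and 3 of 19 feedback promoters and 8.56% of all. The cAMP response element and the CArG box were each in 0 of 15 cytokine promoters. The feedback genes Btg2 and Zfp36 carried the first and second element, which the capitals mark in these windows.

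Btg2 (chr1:134079294-134079341, minus strand): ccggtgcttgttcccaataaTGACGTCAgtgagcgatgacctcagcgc
Zfp36 (chr7:28379257-28379306, minus strand): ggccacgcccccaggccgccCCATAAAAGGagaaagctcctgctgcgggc

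The integrated stress response, in which phosphorylated eIF2 favors translation of ATF4 and ATF4 induces amino acid genes, had 14 higher and 2 lower members of 29 tested (same-level shares 28.9% and 10.5%). Without B30 9 were higher and 0 lower, and neither lower call held in every leave-one-out fit. Atf4 itself was at 267, 262 and 276 CPM in the vehicle libraries against 110.0, 111 and 135 CPM in the WT libraries (log2 fold change 1.18 ± 0.16 (SE), adjusted p = 0.00079). Ppp1r15a (GADD34), which directs dephosphorylation of eIF2, was at 437, 506 and 339 CPM in the vehicle libraries against 70, 54.9 and 47 CPM in the WT libraries (log2 fold change 2.9 ± 0.34 (SE), adjusted p = 0.000215). Ddit3 (CHOP) was at 27, 26.5 and 25.7 CPM in the vehicle libraries against 12.3, 13.2 and 16.4 CPM in the WT libraries (log2 fold change 0.92 ± 0.16 (SE), adjusted p = 0.00293). Values of all 3 were separate between groups, and those of Atf4 and Ddit3 varied little among the vehicle libraries. Shmt2, the mitochondrial serine hydroxymethyltransferase, was higher by 1.02. Trib3 and Chac1, also ATF4 targets and chosen after their values were seen, were not called (adjusted p = 0.108 and 0.708), and Vldlr was lower (log2 fold change -1.39 ± 0.38 (SE), adjusted p = 0.0173), a call lost without A1, A4, B28 or B30.

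Cell cycle inhibitors and genes of proliferation both held members that were higher in vehicle. In the list of p53 targets and cell cycle inhibitors 9 of 24 members were higher and 4 lower (same-level shares 17.2% and 15.4%). Without B30 5 were higher and 0 lower, and the lower calls became 0 without A1 and 1 without A4 or B28. Cdkn1a (p21) was at 118, 104 and 77.9 CPM in the vehicle libraries against 13.3, 10.5 and 13.6 CPM in the WT libraries (log2 fold change 3.0 ± 0.29 (SE), adjusted p = 4.38e-05). Cdkn1b (p27) was at 53.8, 41.3 and 44.1 CPM in the vehicle libraries against 19.1, 17.2 and 17.3 CPM in the WT libraries (log2 fold change 1.38 ± 0.16 (SE), adjusted p = 0.000229). Both cyclin-dependent kinase inhibitors were separate between groups. Pmaip1, the BH3-only protein NOXA, was at 137, 125 and 152 CPM in the vehicle libraries against 4.97, 5.26 and 3.55 CPM in the WT libraries (log2 fold change 4.91 ± 0.43 (SE), adjusted p = 1.88e-05), and the Bcl2 family as a whole had 6 higher and 2 lower of 23 (same-level shares 21.4% and 12.3%), with 3 higher without B30 or A1 and no lower call that held in every leave-one-out fit. Sesn1, a p53-inducible antioxidant gene, was lower (log2 fold change -1.24 ± 0.36 (SE), adjusted p = 0.0207), a call lost without A1, A4 or B30.

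Of 46 DNA replication genes 33 were higher and 0 lower (same-level share 36.3% higher), and of 46 mitosis genes 31 and 0 (same-level share 40.7%). Their medians were 0.58 and 0.56, where the median over all genes was 0.45 in the highest level class, which held the median member of both lists. Mcm4, a subunit of the replicative helicase, was at 696, 539.7 and 666 CPM in the vehicle libraries against 397, 328 and 377 CPM in the WT libraries (log2 fold change 0.79 ± 0.15 (SE), adjusted p = 0.00405). Aurkb, the kinase of the chromosomal passenger complex, was at 273, 233 and 251 CPM in the vehicle libraries against 148, 119 and 149 CPM in the WT libraries (log2 fold change 0.86 ± 0.15 (SE), adjusted p = 0.00322). These differences were small and depended on single libraries: without WT B30, 8 replication and 9 mitosis genes were called higher, without A1 18 and 17, without A4 20 and 16, and with upper quartile scaling 14 and 14. D cyclins and CDKs, in contrast, had 3 higher and 2 lower of 23 (same-level shares 30.6% and 8.58%), 1 and 1 without A1, A4, B28 or B30, and 6 and 1 without B31. Cdk6, a G1 kinase gene, was the member with the smallest adjusted p (log2 fold change 0.80 ± 0.14 (SE), adjusted p = 0.00331).

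Replication-dependent histone genes, whose mRNAs end in a stem-loop instead of a poly(A) tail, had 20 higher and 0 lower of 48 tested, against same-level shares of 7.3% and 23.7%. Another 19 genes of the 67 in the annotation did not pass the count filter. Hist1h2bg, an H2B gene, was at 64.1, 77.4 and 73.8 CPM in the vehicle libraries against 14.6, 11.7 and 11.9 CPM in the WT libraries (log2 fold change 2.5 ± 0.35 (SE), adjusted p = 0.000741). Hist3h2a, an H2A gene, was at 40.6, 50.3 and 34.3 CPM in the vehicle libraries against 8.42, 6.24 and 6.91 CPM in the WT libraries (log2 fold change 2.54 ± 0.25 (SE), adjusted p = 4.50e-05). Groups did not overlap, 13 higher calls held in every leave-one-out fit, 13 were called without B30, and 19 were called with upper quartile scaling. Histone genes lie in clusters of near-identical copies, so the split of reads among them is uncertain. The median level of the tested members was low, at 2.40 CPM. How well the amplification captured mRNAs without a tail was not tested.

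**Figure D3:**
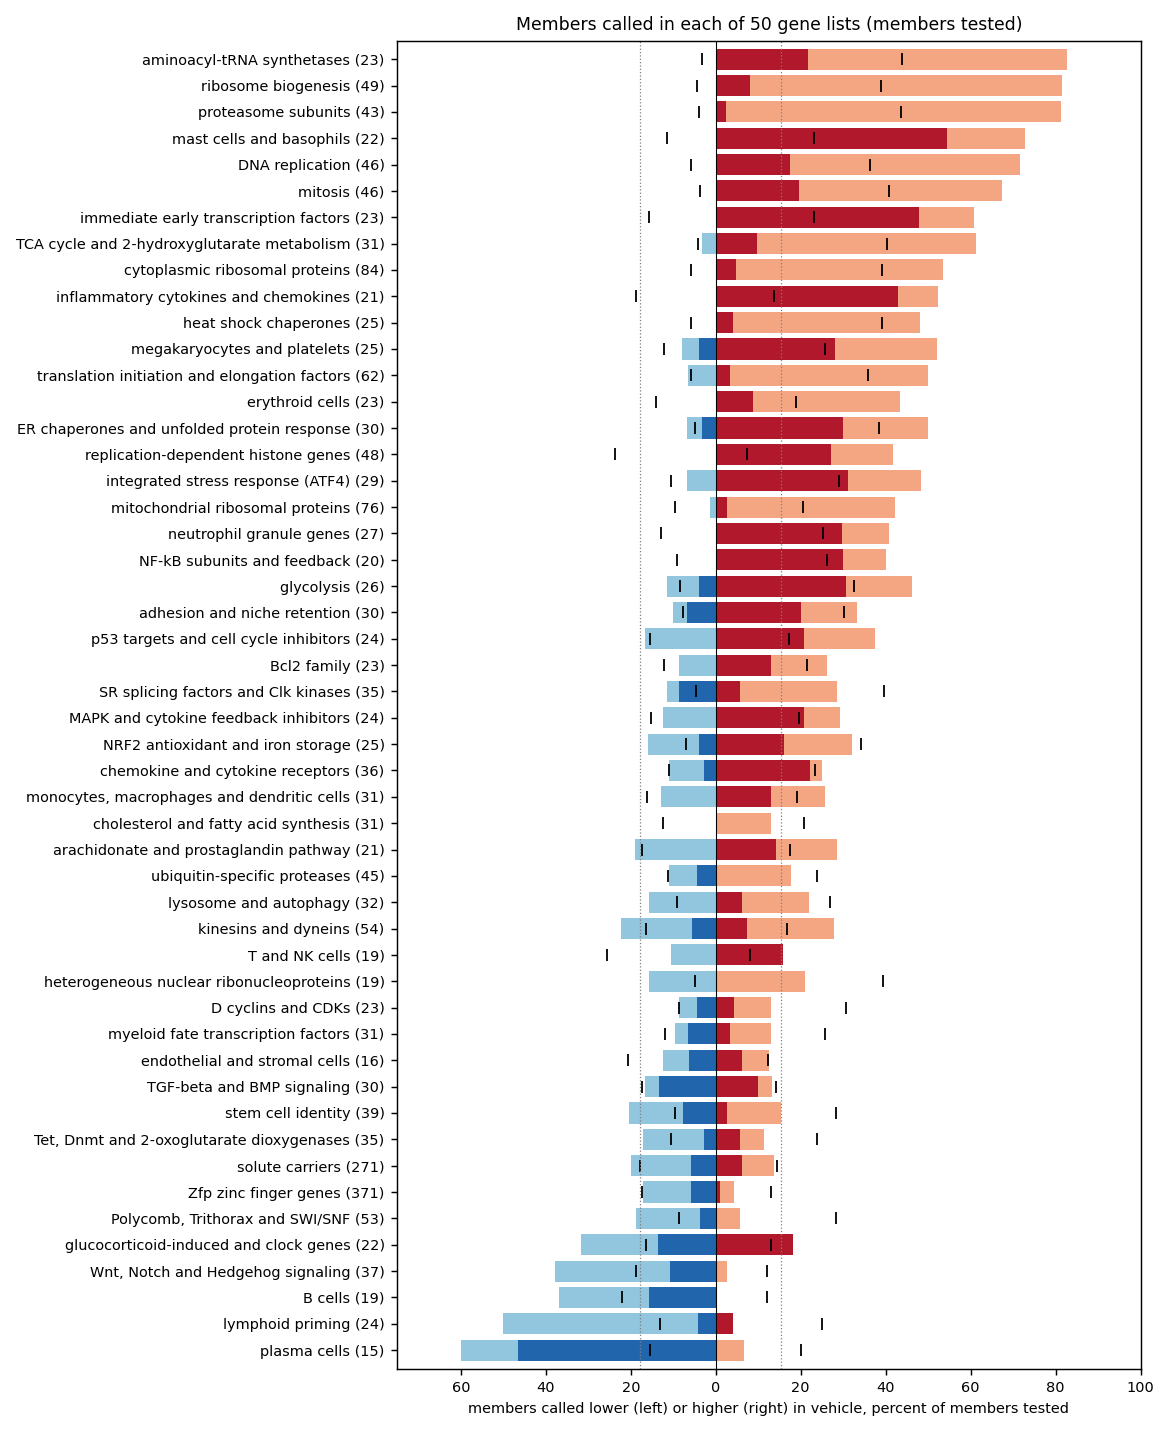
Bars give the percentage of tested members called higher (red, right) or lower (blue, left) in vehicle for 50 gene lists, dark where the call held in all 6 leave-one-out fits, with the same-level shares as black ticks and the shares over all genes (15.4% higher, 17.8% lower) as dotted lines. Immediate early, cytokine, mast cell and histone lists exceed their ticks mostly with dark bars, while the tRNA synthetase, ribosome biogenesis and proteasome bars are mostly light.

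Genes of protein synthesis and turnover were called higher in large numbers, with small differences. Of 49 ribosome biogenesis genes 40 were higher, of 23 aminoacyl-tRNA synthetases 19 and of 43 proteasome subunits 35, with none lower in any of these lists (same-level shares 39%, 43.7% and 43.5%). Medians were 0.68, 0.70 and 0.58. In the highest level class, which held the median member of each of these 3 lists, the median over all genes was 0.45. Mybbp1a, a nucleolar regulator of ribosomal RNA synthesis, was at 855, 654 and 875 CPM in the vehicle libraries against 467, 399.7 and 495 CPM in the WT libraries (log2 fold change 0.81 ± 0.18 (SE), adjusted p = 0.00761). Iars, the isoleucyl-tRNA synthetase, was at 447, 375 and 559 CPM in the vehicle libraries against 241, 205 and 242 CPM in the WT libraries (log2 fold change 1.0 ± 0.23 (SE), adjusted p = 0.00882). Psma3, a subunit of the proteasome core, was at 226, 175 and 238 CPM in the vehicle libraries against 121, 127 and 145 CPM in the WT libraries (log2 fold change 0.70 ± 0.17 (SE), adjusted p = 0.0099). In each gene vehicle A3 was the lowest vehicle library and still lay above all WT libraries. Cytoplasmic ribosomal proteins were higher for 45 of 84, mitochondrial ribosomal proteins for 32 of 76 and translation factors for 31 of 62 (same-level shares 39.2%, 20.5% and 35.9%). Rpsa differed by 0.58, Mrpl16 by 1.05 and Eif4a3 by 0.70 on the log2 scale, while Eif3f, a subunit of initiation factor 3, was lower at -1.44 and lost its call without A1 or B30.

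Most of these calls were lost without WT B30. In its absence 4 ribosome biogenesis, 5 tRNA synthetase, 1 proteasome, 4 cytoplasmic ribosomal, 2 mitochondrial ribosomal and 2 translation factor genes were called higher. The counts, in the same order, were 19, 11, 11, 21, 9 and 12 without A1, 18, 10, 13, 25, 8 and 15 without A4, and 21, 14, 14, 14, 8 and 18 without B28. Lower calls numbered 1 among the mitochondrial ribosomal and 4 among the translation factor genes, and none of these held in every leave-one-out fit. With upper quartile scaling the counts were 16, 10, 9, 9, 6 and 9, where 7.31% of all genes were higher and 20.1% lower. The medians of all 6 lists stayed above 0 under each scaling. With the main scaling the median over all genes was above 0 too in level classes 8 to 10, at 0.22, 0.32 and 0.45.

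Lists of carbon metabolism differed in how far their calls depended on single libraries. Of 26 glycolysis genes 12 were higher and 3 lower (same-level shares 32.6% and 8.33%), and 8 of the higher calls held in every leave-one-out fit. The lower calls became 1 without A1, A4, B28 or B30 and 5 without A3. Ldha, the lactate dehydrogenase chain that favors lactate formation, was at 2288, 1595 and 2322 CPM in the vehicle libraries against 924, 851 and 1136 CPM in the WT libraries (log2 fold change 1.09 ± 0.21 (SE), adjusted p = 0.0045). Ldhb, the chain that favors the reverse reaction, was at 19.6, 30.6 and 5.21 CPM in the vehicle libraries against 71.3, 72.5 and 71.8 CPM in the WT libraries (log2 fold change -1.96 ± 0.43 (SE), adjusted p = 0.00772). The paralogs thus differed in opposite directions, each without overlap. Gpi1 and Gapdh were higher by 0.76 and 0.83. In the list of the TCA cycle and 2-hydroxyglutarate metabolism 19 of 31 were higher and 1 lower (same-level share 40.2% higher), and the higher calls became 3 without B30, 9 without A4, 11 without A1 and 12 without B28. Mdh2, the mitochondrial malate dehydrogenase, was at 634, 491 and 695 CPM in the vehicle libraries against 323, 315 and 397 CPM in the WT libraries (log2 fold change 0.81 ± 0.17 (SE), adjusted p = 0.00555). Cholesterol and fatty acid synthesis had 4 higher of 31, below the same-level share of 20.8%, and no member held its call in every leave-one-out fit.

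Lists of differentiated cells separated the lineages. Because these are bulk libraries, more cells of a type and more RNA per cell cannot be told apart. Mast cell and basophil genes had 16 higher and 0 lower of 22 (same-level share 23.2% higher), 12 in every leave-one-out fit and 16 without vehicle A4, and their summed level was 3102 to 4015 CPM in the vehicle libraries and 1396 to 1577 CPM in the WT libraries. Cpa3, mast cell carboxypeptidase, was at 306, 233 and 444 CPM in the vehicle libraries against 49.3, 30.5 and 48.4 CPM in the WT libraries (log2 fold change 2.94 ± 0.27 (SE), adjusted p = 2.53e-05). Fcer1a, the alpha chain of the IgE receptor, was at 63.1, 49.3 and 168 CPM in the vehicle libraries against 4.93, 3.34 and 3.99 CPM in the WT libraries (log2 fold change 4.51 ± 0.44 (SE), adjusted p = 4.42e-05). Mcpt8, a basophil protease, was at 50.9, 84.3 and 49.7 CPM in the vehicle libraries against 30.4, 9.27 and 17.4 CPM in the WT libraries (log2 fold change 1.7 ± 0.40 (SE), adjusted p = 0.00992). All 3 defining markers were thus above the detection limit in every library and higher in vehicle without overlap.

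Neutrophil granule genes had 11 higher and 0 lower of 27 (same-level share 25.1%), 8 in every leave-one-out fit, with a summed level of 10954 to 16408 CPM in the vehicle libraries and 5426 to 5682 CPM in the WT libraries. Mpo, myeloperoxidase, was at 5191, 7869.6 and 6948 CPM in the vehicle libraries against 2364, 2388 and 2164 CPM in the WT libraries (log2 fold change 1.53 ± 0.23 (SE), adjusted p = 0.00101). Elane, neutrophil elastase, was at 1214, 3139.8 and 1125 CPM in the vehicle libraries against 649.8, 779.6 and 669 CPM in the WT libraries (log2 fold change 1.38 ± 0.32 (SE), adjusted p = 0.00934). Prtn3, proteinase 3, was at 677, 869 and 820.0 CPM in the vehicle libraries against 320.1, 337 and 338 CPM in the WT libraries (log2 fold change 1.25 ± 0.24 (SE), adjusted p = 0.00426). These primary granule genes were separate between groups. Monocyte, macrophage and dendritic cell genes had 8 higher and 4 lower of 31 (same-level shares 19.1% and 16.2%), 5 and 0 without B30, 5 and 2 without A1 and 6 and 1 without A4, and their summed level overlapped, at 1709.7 to 2921 CPM in the vehicle libraries and 1949 to 2184 CPM in the WT libraries. Of their defining markers Csf1r (log2 fold change 1.65 ± 0.40 (SE), adjusted p = 0.0111) and Ly86 (log2 fold change 1.21 ± 0.44 (SE), adjusted p = 0.0463) were higher and Irf8 was not called (adjusted p = 0.658). The call of Ly86 was lost in 5 of the 6 leave-one-out fits.

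Megakaryocyte and platelet genes had 13 higher and 2 lower of 25 (same-level shares 25.7% and 12.2%), with 7 higher and 1 lower in every leave-one-out fit, 13 higher without vehicle A4 and 7 without WT B30, and a summed level of 3144 to 3696 CPM in the vehicle libraries and 2178 to 2542 CPM in the WT libraries. Itga2b, the CD41 integrin chain, was at 622, 603 and 549 CPM in the vehicle libraries against 182, 137 and 151 CPM in the WT libraries (log2 fold change 1.92 ± 0.28 (SE), adjusted p = 0.00107). Pf4, platelet factor 4, was at 138, 126 and 161 CPM in the vehicle libraries against 56.7, 44.6 and 57.6 CPM in the WT libraries (log2 fold change 1.42 ± 0.27 (SE), adjusted p = 0.00457). Gp1bb, a chain of the von Willebrand factor receptor, was at 0.338, 0.351 and 0.395 CPM in the vehicle libraries against 0.508, 1.08 and 0.201 CPM in the WT libraries and was not called (adjusted p = 0.525). Thbs1, thrombospondin 1, was lower, at 2.56, 11.6 and 2.72 CPM in the vehicle libraries against 38.9, 49.1 and 21.4 CPM in the WT libraries (log2 fold change -2.69 ± 0.62 (SE), adjusted p = 0.00891), so the list was not uniform. Erythroid genes had 10 higher and 0 lower of 23 (same-level share 19%), but 2 without WT B30, 3 without vehicle A4 or WT B28 and 5 without WT B31, with a summed level of 2548 to 4178 CPM in the vehicle libraries and 1947 to 2134 CPM in the WT libraries. Tfrc, the transferrin receptor, was at 329, 536 and 492 CPM in the vehicle libraries against 110.0, 114 and 106 CPM in the WT libraries (log2 fold change 2.04 ± 0.35 (SE), adjusted p = 0.0029). Hba-a1 and Hbb-bt were not called (adjusted p = 0.076 and 0.0523), and Hba-a1 stood at 24.9, 21.6 and 20.8 CPM in the vehicle libraries against 3.19, 6.0 and 9.36 CPM in the WT libraries.

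Lymphoid lists held more lower than higher calls. Lymphoid priming genes, which mark the multipotent progenitors closest to lymphocytes, had 12 lower and 1 higher of 24 (same-level shares 13% and 25%) with a median of -1.66. Without WT B30 1 was called lower, without vehicle A4 4 and without vehicle A1 6. Blnk, an adaptor of pre-B cell receptor signaling, was at 2.11, 1.6 and 0.631 CPM in the vehicle libraries against 12.6, 20.1 and 9.76 CPM in the WT libraries (log2 fold change -3.28 ± 0.45 (SE), adjusted p = 0.000719). Dntt, terminal transferase, was at 198, 25.5 and 15.9 CPM in the vehicle libraries against 318, 376 and 406 CPM in the WT libraries. Its vehicle libraries spanned a wide range below WT and the gene was not called (adjusted p = 0.0761). Il7r was not called either (adjusted p = 0.0807) and Rag1 was lower at 0.15, 0 and 0.197 CPM in the vehicle libraries against 1.71, 3.44 and 1.44 CPM in the WT libraries, a call lost without B30. Cnr2, a cannabinoid receptor of immune cells, was higher (log2 fold change 1.38 ± 0.29 (SE), adjusted p = 0.00641). The summed level of the list was 1636 to 2063 CPM in the vehicle libraries and 2750.2 to 2963 CPM in the WT libraries.

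Plasma cell genes were lower for 9 and higher for 1 of 15 (same-level shares 15.5% and 19.9%), 7 of the lower calls and not the higher one in every leave-one-out fit, with a summed level of 386 to 555 CPM in the vehicle libraries and 1001 to 1735 CPM in the WT libraries. Sdc1 (CD138) was at 1.73, 2.17 and 3.95 CPM in the vehicle libraries against 50.2, 57.4 and 27.8 CPM in the WT libraries (log2 fold change -4.11 ± 0.53 (SE), adjusted p = 0.000451). Irf4, the transcription factor of the plasma cell program, was at 0.526, 0.415 and 0.355 CPM in the vehicle libraries against 7.11, 23.5 and 4.86 CPM in the WT libraries (log2 fold change -4.76 ± 0.67 (SE), adjusted p = 0.000808). WT B30 held the highest value of both. Xbp1 was at 46.2, 121 and 133 CPM in the vehicle libraries against 171, 254 and 133 CPM in the WT libraries and was not called (adjusted p = 0.238). B cell genes were lower for 7 of 19 (same-level share 22.1%), 3 without B30 or A1, 4 without A4 and 11 without A3, with a summed level of 287 to 793 CPM in the vehicle libraries and 3492 to 10428 CPM in the WT libraries. The median member stood at 3.45 CPM, so the most abundant members made up most of this sum, and 12 members were not called. Cd79a, a signaling chain of the B cell receptor, was at 1.73, 3.99 and 0.75 CPM in the vehicle libraries against 11.4, 18.1 and 9.52 CPM in the WT libraries (log2 fold change -2.58 ± 0.68 (SE), adjusted p = 0.0142), a call lost without A1 or B30, while Ms4a1 was not called (adjusted p = 0.164). The LSK gate removes lineage-positive B cells, and how far residual mature cells entered these lists was not tested.

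T and natural killer cell markers Cd3e, Cd3d and Trac were low in every library, Cd3e at 0.301, 0.861 and 0 CPM in the vehicle libraries against 0.798, 0.573 and 0.436 CPM in the WT libraries, and were not called. The cytotoxic granule genes Gzmb and Nkg7 of this list were nevertheless higher. Gzmb, granzyme B, was at 46.5, 57.4 and 15.2 CPM in the vehicle libraries against 4.57, 3.91 and 1.34 CPM in the WT libraries (log2 fold change 3.6 ± 0.61 (SE), adjusted p = 0.00246). Nkg7, a granule membrane protein, was at 454, 405 and 419 CPM in the vehicle libraries against 157, 150.2 and 216 CPM in the WT libraries (log2 fold change 1.29 ± 0.15 (SE), adjusted p = 0.000229). Both were separate between groups, and the list had 3 higher and 2 lower of 19 (same-level shares 8.07% and 25.7%), with a summed level of 484 to 592 CPM in the vehicle libraries and 259 to 323 CPM in the WT libraries. Nkg7 made up most of that sum. The list as a whole leaned the other way, with a median log2 fold change of -0.92. All genes in the level class of its median member had a median of -0.72. Without overlap between groups, 3 members were higher and 7 lower, called or not. The 3 higher calls held in every leave-one-out fit, and the lower calls became 0 without B30 or A4 and 1 without A1, B28 or B31. Endothelial and stromal genes had 2 higher and 2 lower of 16 (same-level shares 12.2% and 20.7%), 1 in each direction in every leave-one-out fit, with a summed level of 432 to 535 CPM in the vehicle libraries and 326 to 385 CPM in the WT libraries. Their median log2 fold change was -0.33, against the direction of the sum, where all genes in the level class of their median member had a median of -0.48. Pecam1 was not called (adjusted p = 0.0823), Cxcl12 stood at 1.05, 3.38 and 0.671 CPM in the vehicle libraries against 0.943, 2.29 and 1.81 CPM in the WT libraries and was not called, and Cdh5 did not pass the count filter.

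Stem cell identity genes had 6 higher and 8 lower of 39 (same-level shares 28.2% and 9.59%), and their summed level was 4878 to 6744 CPM in the vehicle libraries and 6839 to 7409 CPM in the WT libraries. Hlf, a transcription factor of the most primitive stem cells, was at 50.8, 103 and 24.5 CPM in the vehicle libraries against 319, 295 and 219 CPM in the WT libraries (log2 fold change -2.22 ± 0.42 (SE), adjusted p = 0.00431). Procr (EPCR), a stem cell surface marker, was at 17, 30.3 and 3.67 CPM in the vehicle libraries against 43.1, 38.3 and 47.3 CPM in the WT libraries (log2 fold change -1.33 ± 0.49 (SE), adjusted p = 0.0488), and this call was lost in 5 of the 6 leave-one-out fits. Mecom, a stem cell transcription factor, was not called (adjusted p = 0.203). Vehicle A4 had the lowest value of all libraries for Hlf and Procr and also for Mecom. Cd48, which multipotent progenitors carry and long-term stem cells lack, was at 329, 251 and 319 CPM in the vehicle libraries against 101, 104 and 159 CPM in the WT libraries (log2 fold change 1.3 ± 0.23 (SE), adjusted p = 0.00279). The list had 1 higher and 3 lower without B30, 4 and 3 without A1, 5 and 4 without A4, 5 and 5 without B28, and 5 and 12 without A3. Lmo2, a partner of SCL and GATA factors, was lower (log2 fold change -1.54 ± 0.36 (SE), adjusted p = 0.010), and fate factors of the myeloid lineages were mixed, with 4 higher and 3 lower of 31 (same-level shares 25.8% and 12%), 1 higher without A3 and 2 without B30 or B31, and Spi1, Cebpa and Cebpb not called (adjusted p = 0.544, 0.593 and 0.152).

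**Figure D4:**
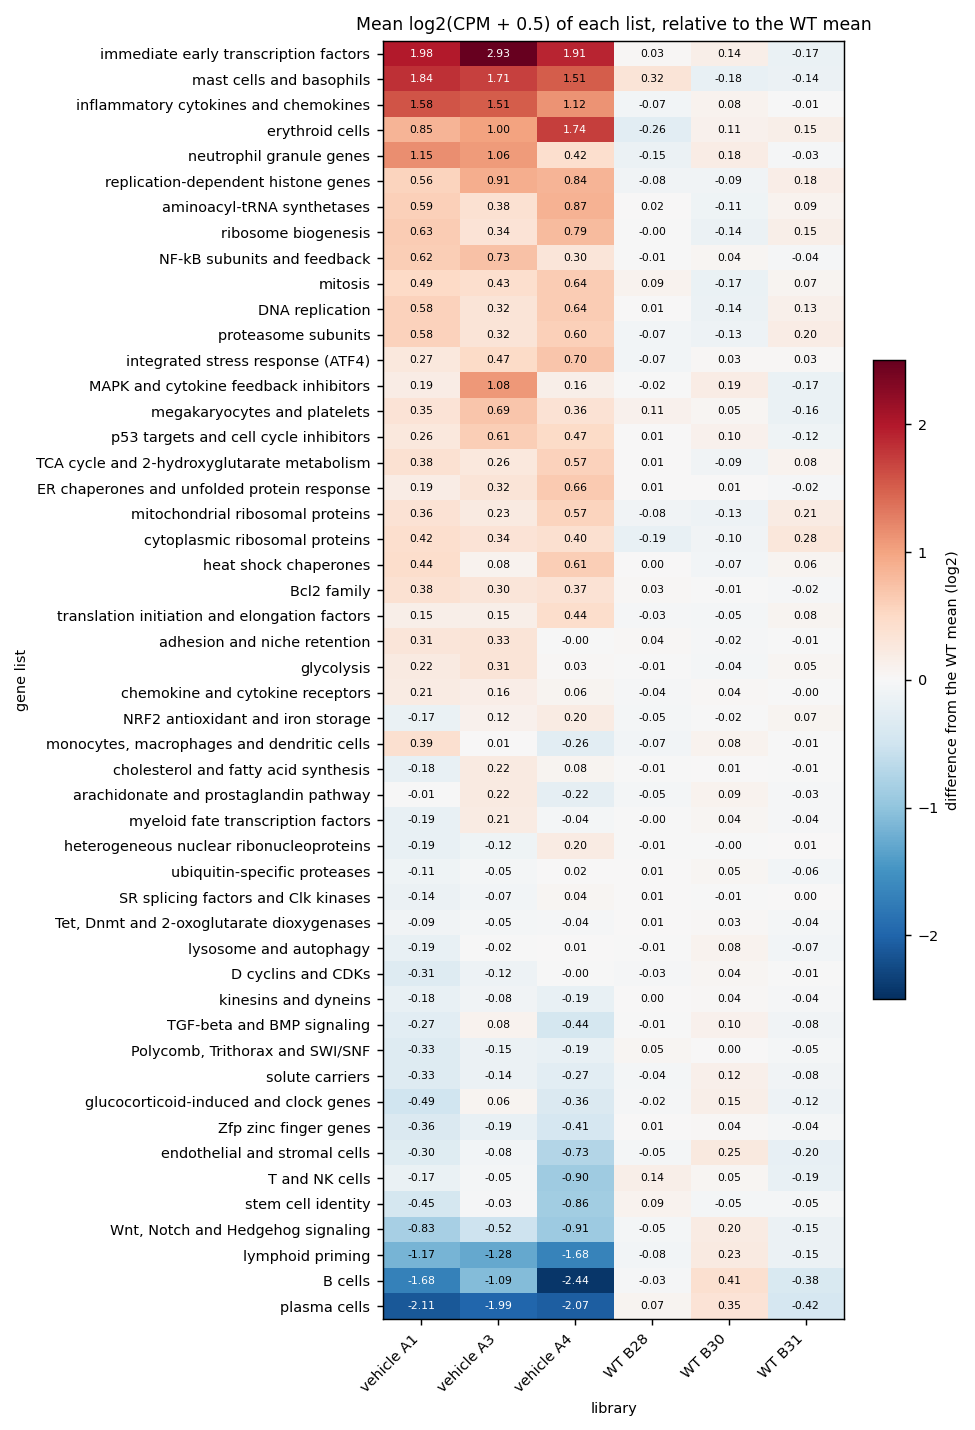
Each cell gives the mean log2(CPM + 0.5) of a list in 1 library minus its mean over the WT libraries, red for higher and blue for lower. The immediate early list runs from 1.91 to 2.93 in the vehicle libraries and the plasma cell list from -2.11 to -1.99, while the erythroid list is highest in vehicle A4 at 1.74 and the stem cell identity list lowest there at -0.86.

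Signaling pathways of development held more lower than higher calls. Of 37 Wnt, Notch and Hedgehog genes 14 were lower and 1 higher (same-level shares 18.8% and 12.1%), with a median of -0.87; 4 lower calls held in every leave-one-out fit. The lower calls became 4 without B30, 5 without A1 and 7 without A4 or B28, and the higher call was lost in each of the 6 fits. Notch2, a Notch receptor of blood progenitors, was at 46.4, 61.1 and 57.7 CPM in the vehicle libraries against 135, 148 and 92.7 CPM in the WT libraries (log2 fold change -1.18 ± 0.25 (SE), adjusted p = 0.00626). Lrp6, the Wnt coreceptor, was at 17, 15.7 and 18 CPM in the vehicle libraries against 27.2, 28.2 and 30 CPM in the WT libraries (log2 fold change -0.75 ± 0.16 (SE), adjusted p = 0.0060). Both were lower in every vehicle library than in any WT library. Of 30 TGF-beta and BMP genes 5 were lower and 4 higher, close to their same-level shares of 17.3% and 14.2%. Smad3, the receptor-activated SMAD, was at 20.7, 24.3 and 17.8 CPM in the vehicle libraries against 58.7, 60 and 41.6 CPM in the WT libraries (log2 fold change -1.35 ± 0.31 (SE), adjusted p = 0.00871). Skil, a repressor of SMADs, was at 51.4, 91.9 and 32.7 CPM in the vehicle libraries against 20.9, 24.5 and 20.4 CPM in the WT libraries (log2 fold change 1.42 ± 0.28 (SE), adjusted p = 0.00507). The mediator and its repressor thus went in opposite directions without overlap.

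Chromatin regulators held more lower than higher calls with the main scaling. Of 53 Polycomb, Trithorax and SWI/SNF genes 10 were lower and 3 higher (same-level shares 8.67% and 28.3%), although with the GC correction the split was 7 lower and 8 higher. Without B30 3 were lower and 0 higher, without A1 4 and 2, and without A3, A4 or B28 6 and 3, and 2 of the lower calls held in every leave-one-out fit. Smarca2, the BRM ATPase, was at 49.4, 104 and 81.3 CPM in the vehicle libraries against 269, 268 and 177 CPM in the WT libraries (log2 fold change -1.61 ± 0.39 (SE), adjusted p = 0.0111). Ash1l, a histone H3 methyltransferase, was at 128, 128 and 118 CPM in the vehicle libraries against 171, 182 and 159 CPM in the WT libraries (log2 fold change -0.45 ± 0.10 (SE), adjusted p = 0.00742). Smarca2 showed the larger difference, and the groups were separate for both. Of 35 Tet, Dnmt and 2-oxoglutarate dioxygenase genes 6 were lower and 4 higher (same-level shares 10.6% and 23.8%); with the GC correction 4 were lower and 12 higher, without B30 1 and 2, without A1 2 and 3, and without A4 3 and 3. Kdm7a, a histone demethylase, was at 10.8, 18.6 and 14.6 CPM in the vehicle libraries against 34.6, 48.2 and 27.8 CPM in the WT libraries (log2 fold change -1.33 ± 0.29 (SE), adjusted p = 0.00761). Jmjd1c, another member of the demethylase family, was higher (log2 fold change 0.75 ± 0.13 (SE), adjusted p = 0.00338). Of 371 Zfp zinc finger genes 64 were lower, no more than the same-level share of 17.3%, and 16 were higher (same-level share 13.1%). Lower and higher calls of this family became 24 and 4 without B30, 32 and 8 without A1, 32 and 7 without A4, 38 and 10 without B28, 63 and 10 without A3, and 51 and 9 without B31.

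Clock and glucocorticoid-induced genes had 7 lower and 4 higher of 22 (same-level shares 16.5% and 13.1%), and the lower calls became 3 without B30 or A1. Arntl (BMAL1), the core clock activator, was at 13.3, 18.1 and 12.9 CPM in the vehicle libraries against 32.4, 30.7 and 26.9 CPM in the WT libraries (log2 fold change -1.02 ± 0.19 (SE), adjusted p = 0.00365). Nr3c1, the glucocorticoid receptor, was lower (log2 fold change -0.62 ± 0.16 (SE), adjusted p = 0.0123), but not without A1 or B30. Zbtb16 (PLZF), in contrast, was at 33.9, 49 and 45.5 CPM in the vehicle libraries against 15.2, 10.7 and 11.8 CPM in the WT libraries (log2 fold change 1.77 ± 0.21 (SE), adjusted p = 0.000232). The collection hour was not given for either group. Antioxidant and iron genes were mixed with 8 higher and 4 lower of 25 (same-level shares 34.1% and 6.97%), 4 and 1 without B30, 5 and 1 without A1, 5 and 3 without A4, and 5 and 2 without B28. Gpx1, glutathione peroxidase 1, was higher (log2 fold change 0.73 ± 0.14 (SE), adjusted p = 0.00392) and Hmox1, heme oxygenase 1, was lower, at 3.61, 1.85 and 2.01 CPM in the vehicle libraries against 14.7, 6.91 and 15.4 CPM in the WT libraries (log2 fold change -2.31 ± 0.54 (SE), adjusted p = 0.00958).

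Further families were mixed, and their counts depended on single libraries. Heat shock chaperones had 12 higher of 25 (same-level share 39.2%), but 1 without B30 or A4, 5 without A1 and 6 without B28. Lysosome and autophagy genes had 7 higher and 5 lower of 32 (same-level shares 27% and 9.12%), 2 and 0 without B30. The lower calls of this list also became 1 without A1 or A4 and 3 without A3, B28 or B31. Ubiquitin-specific proteases had 8 and 5 of 45 (same-level shares 23.8% and 11.3%), 0 and 2 without B30, 4 and 4 without A1, 5 and 3 without A4, 5 and 5 without B28 and 5 and 6 without B31. Kinesins and dyneins, the microtubule motor families, had 15 and 12 of 54, both above the same-level shares of 16.9% and 16.3%, but 4 and 3 without B30, 7 and 5 without A1, 8 and 4 without A4 and 10 and 7 without B28. Kif2c, called higher here, is also a member of the mitosis list. The hnRNP genes had 4 and 3 of 19 (same-level shares 39.4% and 4.8%), and none of these calls held in every leave-one-out fit. SR splicing factors and Clk kinases had 10 higher and 4 lower of 35 (same-level shares 39.7% and 4.57%), 2 and 3 without B30, with Tra2b, an SR-like splicing activator, at 629, 523 and 592 CPM in the vehicle libraries against 269.7, 263 and 331 CPM in the WT libraries (log2 fold change 1.01 ± 0.14 (SE), adjusted p = 0.000808). Of 271 solute carriers 37 were higher and 54 lower (same-level shares 14.3% and 17.8%), 20 and 17 without B30, 28 and 26 without A1 and 28 and 28 without A4. Within this family Slc7a8, a neutral amino acid transporter, was higher (log2 fold change 1.98 ± 0.21 (SE), adjusted p = 8.23e-05) and Slc16a12, a creatine transporter, was lower, at 1.88, 4.18 and 1.62 CPM in the vehicle libraries against 32.9, 26.1 and 20.7 CPM in the WT libraries (log2 fold change -3.37 ± 0.49 (SE), adjusted p = 0.000938).

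The 10 protein-coding genes with the smallest adjusted p in the lower direction were Igf2r, Gas6, Pgr, Fam208a, Fbln1, Klhl42, Vangl1, Tmie, Sdc1 and Vamp1, and each was lower in all leave-one-out fits. Igf2r, the receptor that sends insulin-like growth factor 2 to lysosomes, was at 1.69, 3.09 and 1.3 CPM in the vehicle libraries against 47.9, 39.6 and 23 CPM in the WT libraries (log2 fold change -4.17 ± 0.44 (SE), adjusted p = 9.89e-05). Gas6, the ligand of the TAM receptor kinases, was at 0.113, 0.479 and 0.197 CPM in the vehicle libraries against 18.2, 29.1 and 10.8 CPM in the WT libraries (log2 fold change -6.14 ± 0.72 (SE), adjusted p = 0.000223). Pgr, the progesterone receptor, was at 0.338, 0.191 and 0.0789 CPM in the vehicle libraries against 15.9, 22.8 and 11.3 CPM in the WT libraries (log2 fold change -6.32 ± 0.76 (SE), adjusted p = 0.000265). The vehicle values of Gas6 and Pgr were near the detection limit, so their fitted fold changes are uncertain in size. Klhl42, an adaptor of a cullin ubiquitin ligase, was at 7.14, 8.58 and 9.75 CPM in the vehicle libraries against 38.8, 56 and 29.7 CPM in the WT libraries (log2 fold change -2.29 ± 0.29 (SE), adjusted p = 0.000363). Vamp1, a SNARE protein of vesicle fusion, was at 19.8, 25.7 and 17.8 CPM in the vehicle libraries against 55.2, 65.8 and 62.4 CPM in the WT libraries (log2 fold change -1.53 ± 0.20 (SE), adjusted p = 0.000522). WT exceeded vehicle without overlap in all 5, which the choice of these genes had fixed. In the other direction the 10 were Klf6, Atf3, Ier3, Cd69, Ptgs2, Hspa5, Ccr1, Osm, Cxcl2 and Btg2, and each of them is a member of a list described above.

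Calls were also counted by class of RNA, without same-level shares. Over all genes 15.4% were called higher and 17.8% lower, and in the lowest level class 2.22% and 23.2%. Whether a class differed from other genes of its level was not tested. Of 640 antisense RNA genes tested 39 were higher and 122 lower, of 507 lincRNA genes 46 and 103, and of 608 unverified transcripts (the annotation class TEC) 29 and 159. Small nuclear RNA genes held more higher than lower calls, 14 and 1 of 46, and so did small nucleolar RNA genes, 17 and 3 of 106. Non-coding genes took 1.70% to 1.91% of counts in the vehicle libraries and 2.04% to 2.34% in the WT libraries. The strand used for counting was not given in the sources used here, so reads of an antisense gene and its partner cannot be told apart, and Fam208a, Mpo, Selp, Csf1r, Gpi1, Hsp90b1 and Cebpb shared between 10.3% and 20.7% of their exon bases with a gene on the opposite strand.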

How the data were processed

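RNA of 15 libraries of sorted CD45.2+ LSK cells was read, 3 per group, and the 3 vehicle and 3 WT libraries are compared here. The deposited table holds whole-number read counts per Ensembl gene. According to the methods and the submitters' processing notes, the authors aligned reads to mm10 (GRCm38) with STAR 2.5.1a, which also counted them, and used DESeq2 1.6.3 for their own normalized table, which was not used here. The strand setting was not given in the sources used here. No column was left without a sample.

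Genes were filtered with filterByExpr by group, scaled by the trimmed mean of M values and tested with edgeR 4.0.16 (R 4.3.3, quasi-likelihood F test) over all 15 libraries in 5 groups. The p-values were adjusted by Benjamini-Hochberg over all 17834 genes, and an adjusted p below 0.05 was a call. Log2 fold changes are vehicle minus WT with their standard errors. CPM values are counts scaled to a common library size. Symbols, chromosomes and exon overlaps came from GENCODE M21. List means used log2(CPM + 0.5), and the same-level share averages the percentage called over the level class (1 of 10 by mean CPM) of each list member.

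The genes named were, by rule, the 10 protein-coding genes of each direction with the smallest adjusted p among genes whose groups did not overlap. Also named were up to 4 called members of each list in its main direction, chosen the same way, and 1 in the other direction. The mutated genes, the sort markers and the defining markers of cell types were added. 1 gene that this rule names is not reported here. The 38 program lists and 12 cell type lists, and the comparison itself, were chosen with earlier results of these data known, and lists share genes. Ribosomal protein genes were taken by name prefix, without the Rps6k kinases and Rps19bp1. In counts simulated for vehicle against WT with 17834 genes, 27% of genes changed 2-fold and 86% of genes changed 4-fold were recovered, 100% of them in the right direction, with 5 false calls. Apart from the changed genes, these counts were drawn from 1 mean per gene for all libraries. They held no shift with expression level and no deviating library, so the 5 false calls do not measure error among the real calls. Within groups the libraries differed by more than sampling noise. Alternatives were other scalings, filters, gene sets and thresholds, DESeq2 1.42.0, a fit of these 6 libraries alone and leaving out each library. Standard errors cover the fitted spread between these libraries, and limits of detection cover counting error only.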

Additional observations from a re-analysis of the deposited data

Results flagged for a closer look

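Data outside the comparison held 1 signal. The summed level of the Y-linked genes Ddx3y, Uty, Kdm5d and Eif2s3y, which were left out of the comparison, averaged 464 CPM in the 3 vehicle libraries (437 to 494 CPM) and was 0 to 0.134 CPM in the 3 WT libraries. Sex and genotype cannot be told apart in these 6 libraries, and the part of sex in the autosomal differences was not tested. Apart from leaving out each library in turn, groups of 3 libraries were not searched for single deviating libraries.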

How the results depend on the processing

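The 5690 calls (2633 higher, 3057 lower) became 1543 (725 and 818) at an adjusted p below 0.01 and 3180 with a fold of at least 2, of which 591 were higher. Higher calls numbered 3986 with GC content offsets and 1254 with upper quartile normalization, and lower calls numbered 5181 with no filter beyond 1 count. Leaving out 1 library gave 1815 to 5639 calls, 802 to 2568 higher and 1013 to 3071 lower. WT B30 mattered most (1815 calls, 802 and 1013), followed by vehicle A1 (3334, 1455 and 1879) and vehicle A4 (3560, 1615 and 1945), and without WT B28 the higher calls fell to 1682. The cause was not tested. Fewer libraries also leave less power. All other alternatives kept the counts within 1.5 times, and DESeq2 called 7475 (2978 and 4497). Of 4131 values for 259 named genes, 3873 kept direction and side of the threshold, 228 lost and 19 gained a call, and 11 changed sign. None of these 11 belonged to a gene called in the fit of all libraries. They were Cxcl12 (-0.0132 with a mean of at least 10 counts, -0.0170 with only the vehicle and WT libraries, -0.0762 with upper quartile normalization, and -0.938 to 0.424 on leaving out 1 library), Cebpa (0.0924 with GC content offsets) and, over the fits that left out 1 library, Cd3d (-0.576 to 0.101), Klf1 (-0.579 to 1.23), Gp1bb (-1.11 to 0.0348), Idh2 (-0.442 to 0.0733) and Ly6a (-0.721 to 0.761). Of 1800 list counts 439 moved by over 1.5 times. No paired analysis was possible because the library numbers are not shared between vehicle and WT.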

Other observations

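Imprinted genes, which are read from 1 parental allele and of which several are known in adult stem cells for a role in quiescence, were examined after Igf2r and Ndn had been seen to be lower in vehicle. The list of 24 was therefore made with values in view and no test applies. Of 16 that passed the count filter 9 were lower in vehicle, 0 higher and 7 not called, where the percentage called among all genes of the same expression level was 22.6% lower and 11.3% higher, and 5 of the lower calls held in every leave-one-out fit. Ndn, which encodes necdin, was at 0.790, 1.08 and 0 CPM in the vehicle libraries and 19, 14.1 and 12.1 CPM in the WT libraries (adjusted p = 0.00669, edgeR). Cdkn1c, the cyclin-dependent kinase inhibitor p57, was at 0.0376, 1.91 and 0.0395 CPM against 4.54, 9.84 and 4.02 CPM (adjusted p = 0.0445). Its call was lost in 5 of the 6 leave-one-out fits. The non-coding Meg3 was at 0.188, 0.191 and 0.118 CPM against 1.81, 1.55 and 1.58 CPM (adjusted p = 0.0110). Several members lie near the detection limit in vehicle. Grb10 (adjusted p = 0.999), Gnas (adjusted p = 0.731) and Impact (adjusted p = 0.539) were not called. Cdkn1c and Gnas shared 30.7% and 22% of their exon bases with a gene on the opposite strand, so their reads are uncertain.

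Over all genes called higher with a promoter sequence, the cAMP response element TGACGTCA was in 94 of 1939 (4.85%), against 383 of 11360 tested genes (3.37%), the E-box CACGTG in 262 (13.5%) against 1245 (11%), TTCNNNGAA in 187 (9.64%) against 972 (8.56%), and the ER stress element in 7 (0.361%) against 18 (0.159%). The AP-1 site TGANTCA was in 121 (6.24%) against 753 (6.63%) and the CArG box in 27 (1.39%) against 178 (1.57%). These shares are descriptions and were not tested.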
